A study of Mus musculus with 2 samples.

Results

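The 10 genes described here encode enzymes of glycolysis and lactate metabolism: *Hk1*, *Hk2*, *Aldoa*, *Tpi1*, *Gapdh*, *Pgk1*, *Eno1*, *Pkm*, *Ldha* and *Ldhb*. They were taken by symbol from the 17774 genes of the deposited counts, and all 10 had a row and passed the gene filter. Each was followed across single GFP-positive cells of *Pde6c*.GFP mice in 2 libraries and across both sides of the uninjected plate. Both libraries came from C57BL/6 mice carrying the Pde6ccpfl1 mutation, a model of achromatopsia in which cones degenerate, together with eGFP under the *Chrnb4* promoter, which marks cones for sorting. Retinae were labelled P24. One library (85 cells deposited) was from uninjected eyes, and the other (66 cells) was from eyes given a single intravitreal injection of 10 micromolar GSK-J4, an inhibitor of the Jumonji H3K27 demethylases, at P14, 10 days before collection. The comparison group was uninjected, so the injection itself is part of the difference between the libraries. How many animals were pooled is not given in the sources used here.

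Glycolysis splits glucose into pyruvate, yielding ATP and NADH, and lactate dehydrogenase reduces pyruvate to lactate while regenerating the NAD+ that the pathway needs. Photoreceptors are known to convert much of their glucose to lactate even when oxygen is present, and they feed glycolytic intermediates into the renewal of outer segment membranes. Hexokinase 2, the M2 form of pyruvate kinase and lactate dehydrogenase A are the isozymes usually linked to this aerobic glycolysis in photoreceptors.

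There was 1 library and 1 plate per condition, so the treatment, the library and the plate cannot be told apart, and a test across samples was not possible. Cells are not replicates of a condition. Intervals are exact at 95% and cover counting error only. After the filter of the methods, 82 uninjected cells held 1113424 counts (median 8118 per cell, range 860 to 98250) and 64 GSK-J4-treated cells held 208578 (median 2335.5, range 420 to 15371). The GSK-J4-treated library stood apart in its cone identity. The 11 cone markers took 2.59% of uninjected counts (0.358% to 9.81% per cell, none of the 11 at 0) and 0.213% of GSK-J4-treated counts (0% to 6.74% per cell, 5 of 11 at 0, *Opn1sw*, *Gngt2* and *Guca1a* among them), and only 14 of the 64 treated cells had any cone marker count. The 10 rod markers took 0.281% and 0.0240%, with 2 at 0 in the treated library, the 8 Müller glia markers 0.0967% and 0.0350%, and the 2 erythrocyte markers with a row had 6 counts and 0. In most treated cells the defining markers of the labelled cell type, cone photoreceptor, were thus at 0. The names of its cells also hold the word adult, which differs from the labelled age. The median share of mitochondrial counts per cell was 0.949% in uninjected and 0.0145% in treated cells. These differences in markers, depth and mitochondrial share move with every comparison of the libraries below, and their part in it was not tested.

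Promoter windows of the 10 genes, as annotated in RefSeq on GRCm38.p6 (250 bases before to 50 bases after each start), matched 17 windows. The letters ACGTG, the core recognised by hypoxia-inducible factors, which drive many glycolytic genes, were found on either strand in 8 windows of 7 members (*Hk1*, *Hk2*, *Aldoa*, *Gapdh*, *Pgk1*, *Pkm* and *Ldha*) and in 19.6% of all 32851 windows. The GC box GGGCGG was found on either strand in 9 windows of 7 members and in 35.7% of all windows. The letters TAATCC, recognised by the photoreceptor factor CRX, were found on either strand in 1 window, a second start of *Ldha*, and in 7.06% of all windows. A match is a string of letters, not a bound site. For each of the 3 members on which the comparisons turn most, 1 of its windows is printed. The letters run 5′ to 3′ on the strand of the gene, with matches to ACGTG and GGGCGG on either strand in capitals. *Aldoa* and *Pkm* are shown as the most abundant members, which had no count in treated cells, and *Ldha* as the member with the most counts there.
Aldoa, chr7:126799129-126799428, minus strand: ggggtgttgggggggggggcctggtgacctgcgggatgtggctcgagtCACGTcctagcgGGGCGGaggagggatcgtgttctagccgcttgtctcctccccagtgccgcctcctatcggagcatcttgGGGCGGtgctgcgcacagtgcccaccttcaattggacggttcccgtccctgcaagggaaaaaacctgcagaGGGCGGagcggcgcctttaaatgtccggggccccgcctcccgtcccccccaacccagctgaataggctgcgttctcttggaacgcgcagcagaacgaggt
Pkm, chr9:59656977-59657276, plus strand: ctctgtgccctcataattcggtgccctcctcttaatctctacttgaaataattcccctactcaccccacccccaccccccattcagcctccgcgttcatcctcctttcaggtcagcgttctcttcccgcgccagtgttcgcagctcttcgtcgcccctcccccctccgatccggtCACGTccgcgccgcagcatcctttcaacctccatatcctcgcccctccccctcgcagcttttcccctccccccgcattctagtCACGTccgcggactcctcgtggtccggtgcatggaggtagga
Ldha, chr7:46845554-46845853, plus strand: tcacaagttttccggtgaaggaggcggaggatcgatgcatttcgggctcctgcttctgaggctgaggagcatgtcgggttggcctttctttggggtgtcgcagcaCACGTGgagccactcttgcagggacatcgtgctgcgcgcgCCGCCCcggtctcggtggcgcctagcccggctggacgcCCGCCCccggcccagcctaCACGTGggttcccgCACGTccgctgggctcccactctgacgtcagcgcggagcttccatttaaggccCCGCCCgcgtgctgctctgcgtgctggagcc
The printed *Aldoa* window held 1 match to ACGTG and 3 to the GC box, that of *Pkm* 2 and 0, and that of *Ldha* 5 and 3. The windows not printed differed. That of *Pkm* (from chr9:59656326) held 0 and 1, and that of *Ldha* (from chr7:46846832) 0 and 0. Those of *Aldoa* held 1 and 3 (from chr7:126799205) and 0 and 0 (from chr7:126800398). In *Ldha*, CACGTG reads as ACGTG on both strands, so that each such stretch gives 2 overlapping matches.

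In uninjected cells the 10 genes together held 8161 counts, 0.733% of the library, and every cell had counts of at least 2 of them. In GSK-J4-treated cells they held 79 counts, 0.0379% of the library, a share 19.4-fold lower (15.5 to 24.5). At the uninjected rate, 1529 counts would be found in a library of the treated depth. The members most abundant in uninjected cells, *Aldoa*, *Pkm* and *Tpi1*, had no count in any treated cell, whereas *Ldha* and *Hk1* were still counted and together made up most of the 79. The log-fold, the natural log of mean counts per 10000 plus 1 in treated against uninjected cells, was below -0.3 for 9 of the 10 members and above 0.3 for *Hk1*. Of the 7682 genes detected (counted in 10% or more of the cells in one library or the other), 24% were lower by this limit and 20.4% were higher. The median log-fold was -1.36 over the members and -0.0050 over those genes. Because 1 is added to each mean, genes of low abundance cannot fall below -0.3 even without a treated count. The shares and the median of all detected genes were not matched to the abundance of the members. Of the 7 members with at least 100 uninjected counts, 4 had no treated count, against 21.3% of the 1853 genes that abundant.

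**Figure D1:**
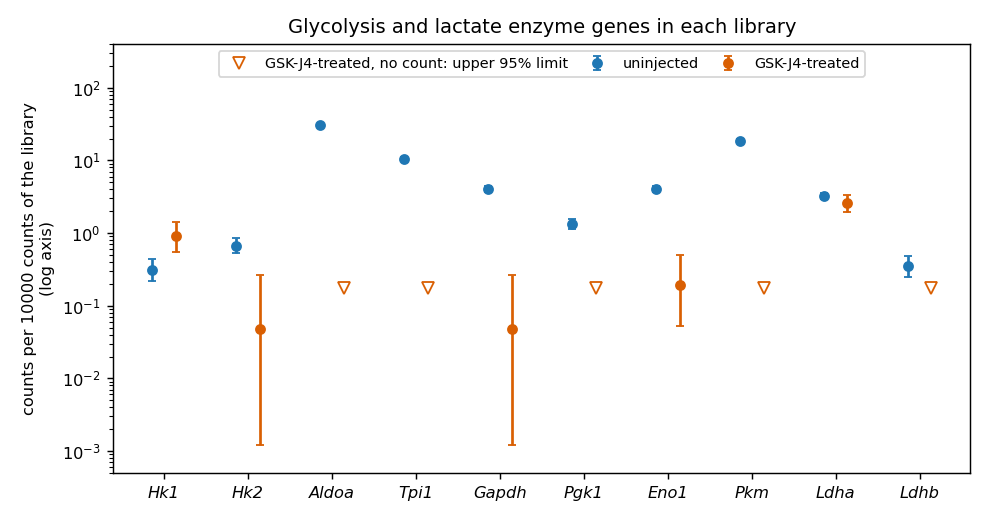
Summed counts per 10000 counts of the library (log axis) for each of the 10 genes in uninjected and GSK-J4-treated cells, with exact 95% Poisson intervals that cover counting error only. Open triangles mark the upper 95% limit for genes without a treated count. *Aldoa* stands at 30.3 in uninjected cells and has no treated count, whereas the points of *Ldha* (3.22 and 2.59) nearly coincide and *Hk1* is higher in treated cells.

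Hexokinases phosphorylate glucose on entry and so commit it to the cell. *Hk1* (GRCm38, chr10:62268855-62379908, minus strand) encodes the form found in most tissues and in brain. In uninjected cells its count per cell ran from 0 through a median of 0 to 6, and 17 of 82 cells (20.7%, 12.6% to 31.1%) had a count. In treated cells it ran from 0 through 0 to 8, and 9 of 64 (14.1%, 6.64% to 25.02%) had a count. Its 35 uninjected counts (24.4 to 48.7) and 19 treated counts (11.4 to 29.7) gave rates of 0.314 and 0.911 per 10000, a ratio of 2.90 (1.57 to 5.21) and a log-fold of 0.33. So the share of cells with *Hk1* was not higher among treated cells, while its share of the counts was. This difference rested on few cells. One treated cell of 4048 counts held 8 of the 19 (42.1%), and without the top cell of each library the ratio was 2.02 (0.911 to 4.17). It also lay on 1 side of the plates. In columns 1 to 6 the counts were 19 and 16 (treated to uninjected ratio 5.21, 2.51 to 10.7), and in columns 7 to 12 they were 16 and 3 (0.884, 0.165 to 3.09).

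*Hk2* (chr6:82725025-82774454, minus strand) encodes the hexokinase of aerobic glycolysis. Its count ran from 0 through 0 to 19 in uninjected cells, with a count in 27 of 82 (32.9%, 22.9% to 44.2%), and 1 treated cell had 1 count. The rate was 14.05-fold lower in treated cells (2.45 to 562), from 75 counts (59.0 to 94.0) and 1 count (0.0253 to 5.57), with a log-fold of -0.47. *Hk1* thus made up 31.8% (23.3% to 41.4%) of the 110 hexokinase 1 and 2 counts in uninjected cells and 19 of 20 (75.1% to 99.9%) in treated cells. Both isozymes were counted in 13 uninjected cells and in 0 treated cells.

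Aldolase cleaves fructose 1,6-bisphosphate, and triosephosphate isomerase interconverts its products. *Aldoa* (chr7:126795234-126800751, minus strand, with another gene model of the same name at chr7:126800790-126809108) was the most abundant member, with 41.3% of the uninjected member counts. Its count per cell ran from 0 through a median of 17.5 to 313, and 78 of 82 cells had a count (95.1%, 88.0% to 98.7%). In treated cells it was 0 throughout, and 0 of 64 cells allows a share of cells with a count of up to 4.69% (a floor of 3 cells), which at this depth does not limit the share of cells that express the gene. The 3373 uninjected counts (3260 to 3489) against a floor of 3 counts over the treated library made it at least 211-fold lower (log-fold -3.51), where 632 counts would be found at the uninjected rate. *Tpi1* (chr6:124810586-124814296, minus strand) had 0 to 207 counts per uninjected cell with a median of 3, was counted in 63 of 82 cells (76.8%, 66.2% to 85.4%) and had no treated count. From 1164 counts, with 218 to be found at the uninjected rate, it was at least 72.7-fold lower (log-fold -2.16). For both genes all treated cells lay at 0, at or below the lowest uninjected cells, which also had none.

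*Gapdh* (chr6:125161715-125166467, minus strand) encodes the dehydrogenase that makes the NADH of glycolysis, and *Pgk1* (chrX:106187100-106203699, plus strand) the kinase of the first ATP-yielding step. *Gapdh* was counted in more uninjected cells than any other member, 81 of 82 (98.8%, 93.4% to 99.97%), at 0 to 46 counts with a median of 2. One treated cell had 1 count. The rate, from 445 counts and 1, was 83.4-fold lower in treated cells (14.9 to 3300), with a log-fold of -1.81. *Pgk1* had 0 to 42 counts per uninjected cell with a median of 0, and a count in 31 of 82 uninjected cells (37.8%, 27.3% to 49.2%). Its 148 uninjected counts and 0 treated counts made it at least 9.24-fold lower (log-fold -0.77). Of *Gapdh*, a gene often used as a reference, 83.4 counts would be found in the treated library at the uninjected rate.

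Enolase makes phosphoenolpyruvate, and pyruvate kinase turns it into pyruvate with the second ATP-yielding step. *Eno1* (chr4:150236721-150248879, plus strand) had 0 to 50 counts per uninjected cell with a median of 2, and 70 of 82 cells had a count (85.4%, 75.8% to 92.2%). In the treated library 4 cells had 1 count each. The rate was 21.1-fold lower (8.19 to 77.9), from 451 counts and 4 (1.09 to 10.2), with a log-fold of -1.63. *Eno1b*, a near-identical copy, held more counts than *Eno1* in uninjected cells, 800, and none in treated cells, at least 49.95-fold lower. It shares 86.1% of its 45-base stretches with other annotated genes, so how reads were split between the copies is uncertain. Summed over both, 1251 counts and 4 gave a rate 58.6-fold lower (22.8 to 215). *Pkm* (chr9:59656368-59679375, plus strand), whose counts do not tell the M1 from the M2 form, had 25.4% of the uninjected member counts. Its count ran from 0 through a median of 6.5 to 361, with a count in 74 of 82 uninjected cells (90.2%, 81.7% to 95.7%) and in 0 of 64 treated cells. With 2072 uninjected counts and 388 to be found at the same rate in treated cells, it was at least 129-fold lower (log-fold -2.85).

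*Ldha* (chr7:46841475-46855627, plus strand) and *Ldhb* (chr6:142490249-142507957, minus strand) encode the subunits of lactate dehydrogenase, which as A-rich tetramers favours lactate formation and as B-rich tetramers its oxidation. *Ldha* had the most treated counts of the 10 members, and they lay in few cells. *Hk1*, the only other member with more than 4 treated counts, was also uneven, with 8 of 19 in 1 cell. Uninjected cells had 0 to 48 *Ldha* counts with a median of 1, and 72 of 82 had a count (87.8%, 78.7% to 94.0%). In treated cells 5 of 64 had a count (7.81%), and 51 of the 54 counts lay in 2 of them. One held 37 (68.5%) in 15371 counts, the deepest treated cell, with no cone marker count. The second held 14 (25.9%) in 4494 counts, of which 303 were of the cone opsin gene *Opn1mw*. Every other cone marker was at 0 in this second cell. The other 3 cells had 1 *Ldha* count each.

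Summed over the library, *Ldha* rates were 3.22 and 2.59 per 10000, a ratio of 0.803 whose interval (0.592 to 1.07) includes no difference. The mean over cells, which weights each cell equally, gave a log-fold of -1.09, and without the top cell of each library the ratio of summed rates was 0.303 (0.174 to 0.493). By side, that ratio was 0.471 (0.265 to 0.784) in columns 1 to 6 and 1.20 (0.819 to 1.73) in columns 7 to 12, which hold the top cell. *Ldhb* had 39 counts in 15 of 82 uninjected cells (18.3%, 10.6% to 28.4%), all of which also had *Ldha*, and none in treated cells, at least 2.44-fold lower (log-fold -0.37). At the uninjected rate 7.31 treated counts of *Ldhb* would be found, so that this difference is close to what the depth can show. *Ldha* made up 90.2% (86.8% to 92.9%) of the 398 lactate dehydrogenase counts in uninjected cells and all 54 in treated cells (a share of 93.4% to 100%).

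**Figure D2:**
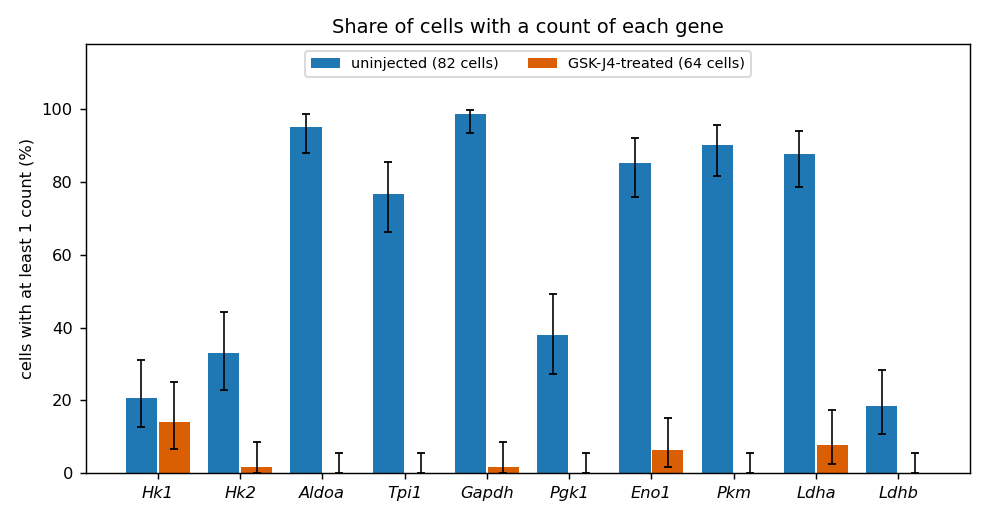
Percent of cells with at least 1 count of each of the 10 genes in the 82 uninjected and 64 GSK-J4-treated cells, with exact 95% binomial intervals. *Gapdh* (98.8%), *Aldoa* (95.1%) and *Pkm* (90.2%) were counted in most uninjected cells, while no gene was counted in more than 14.1% of treated cells, the value of *Hk1*.

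Lower depth alone lowers these shares, so each cell was also thinned to 867 counts, which left 81 uninjected and 50 treated cells. *Aldoa* was then counted in 63 of 81 uninjected cells and 0 of 50 treated cells, *Pkm* in 42 and 0, *Gapdh* in 30 and 0, *Tpi1* in 28 and 0, *Ldha* in 26 and 2, and *Eno1* in 20 and 2. For *Pgk1* (6 and 0), *Hk2* (4 and 0), *Ldhb* (4 and 0) and *Hk1* (4 and 3) the thinned counts were too few to compare. The 6 members first named were thus still counted in a larger share of uninjected cells at equal depth.

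**Figure D3:**
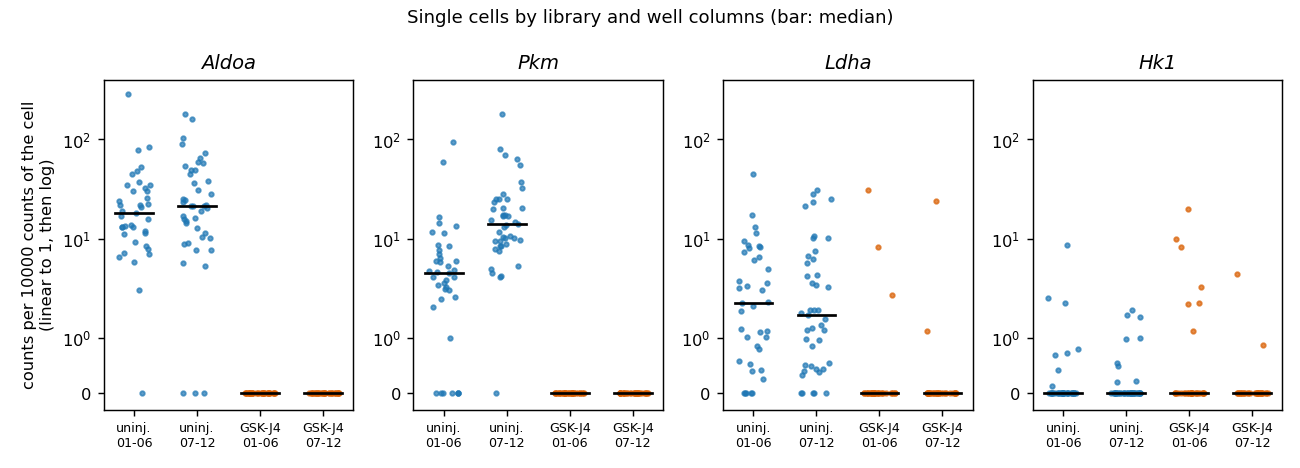
Counts per 10000 of *Aldoa*, *Pkm*, *Ldha* and *Hk1* in every cell (axis linear to 1, then log), by library and by well columns 1 to 6 or 7 to 12, with a bar at each median. Uninjected cells spread from 0 to 288 for *Aldoa* and to 181 for *Pkm*, where every treated cell lies at 0, while a few treated cells lie above 0 for *Ldha* (5) and *Hk1* (9).

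Uninjected cells had a median of 6.5 of the 10 members counted. The lowest had 2, 67 of 82 had at least 5, and 5 cells had all 10. Among treated cells 50 of 64 had none, 9 had 1, 4 had 2 and 1 had 3. After thinning, 2 of 81 uninjected cells had none and 46 had at least 3, while 43 of 50 treated cells had none and no treated cell had more than 1. The share of a cell's counts on the 10 genes ran from 0.128% through a median of 0.571% to 3.18% in uninjected cells and from 0% through 0% to 0.334% in treated cells, so the groups overlapped only in the lower part of the uninjected range. The 14 treated cells with a member count were deeper than the 50 without, with medians of 4513 and 1913.5 counts. Of the 14 treated cells with a cone marker count, 4 had a member count.

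**Figure D4:**
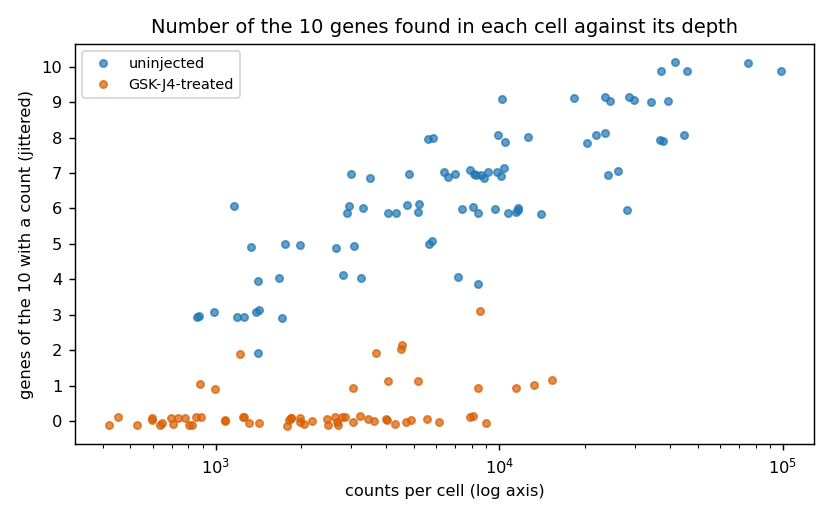
Number of the 10 genes counted in a cell against its total counts (log axis), one point per cell, with points shifted slightly up or down so that they do not hide each other. Uninjected cells run from 2 to 10 genes, and 50 of the 64 treated cells lie at 0, also at depths where uninjected cells had several.

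Per kilobase of merged exons in GENCODE vM21, the order in uninjected cells was led by *Aldoa* at 10.4 counts per 10000 per kb (10.1 to 10.8). *Tpi1* (3.80, 3.58 to 4.02) and *Pkm* (3.72, 3.56 to 3.88) followed, with overlapping intervals. Next were *Ldha* (0.974) and *Gapdh* (0.967), whose intervals also overlapped. Those of *Eno1* (0.753, 0.685 to 0.826) and *Pgk1* (0.592, 0.501 to 0.696), the next levels down, overlapped only slightly. Overlap of intervals does not show that levels are equal. *Ldhb* (0.223), *Hk2* (0.113) and *Hk1* (0.0368) were the lowest. In treated cells the order of these length-scaled levels was *Ldha* (0.782), *Hk1* (0.107) and *Eno1* (0.0357), whose interval (0.00971 to 0.0913) overlapped that of *Hk1* (0.0643 to 0.167). The counts are sums of reads from the 3' and 5' ends of transcripts, so they need not grow with exon length. Length scaling may therefore misplace genes in this order. Without it, *Pkm* (18.6 per 10000 in uninjected cells) lay above *Tpi1* (10.5).

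The sharing of sequence limits single members. In 45-base stretches, the read length, *Hk1* and *Hk2* shared none with other annotated genes, *Tpi1* 5.30%, *Aldoa* 6.51%, *Ldha* 11.5%, *Ldhb* 23.9%, *Gapdh* 25.3% (with 246 other genes), *Eno1* 26.7%, *Pkm* 27.8% and *Pgk1* 54.1%. Exons overlapped those of another gene by 157 bases for *Hk1* (*Hk1os*), 25 for *Aldoa* (*Fam57b*), 34 for *Tpi1* (*Spsb2*), 68 for *Gapdh* (*Iffo1*) and 767 for *Pkm* (*Gm49759*). Whether strand was used in counting is not given in the sources used here.

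Other genes of the pathway were taken from lists. Their counts of lower and higher genes stand beside 24% lower and 20.4% higher among all detected genes. Of 8 further glycolytic genes and isozymes detected among 18 with a row, 5 were lower beyond 0.3 log-fold, 1 was higher and 2 lay between, with a median log-fold of -0.47. *Pgam1*, the phosphoglycerate mutase between *Pgk1* and enolase, had 539 uninjected counts and none treated, at least 33.7-fold lower. *Eno2*, the neuronal enolase, had 281 and 27, a ratio of 0.513 (0.332 to 0.762). Nearly all its uninjected counts lay in columns 7 to 12 of the plate, as described below. The other lower genes were *Aldoc*, the aldolase of brain (106 and 12, 0.604, 0.303 to 1.10), and *Eno3*, the muscle enolase (49 and 1, 0.109, 0.00270 to 0.636), and the higher one was *Pfkp*, a phosphofructokinase (14 and 6, 2.29, 0.721 to 6.34), all 3 named after their values were seen. Among sparse genes of this list, below the detection limit of 10% of cells, some had a higher treated rate. *Hkdc1* had 3 uninjected and 7 treated counts (ratio 12.5, 2.84 to 74.6). *Pklr*, the liver and red cell pyruvate kinase, had 5 and 5 (5.34, 1.23 to 23.2). Both were named because their intervals lay above 1. The intervals of other sparse genes included 1, such as *Pfkm* (11 and 6, 2.91, 0.884 to 8.59) and *Bpgm* (13 and 1, 0.411, 0.00966 to 2.73).

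Of 3 detected genes of glucose and lactate transport, 1 was lower and 2 lay within 0.3 (median -0.22). These are too few to set apart from the 24% lower among all detected genes. *Bsg*, basigin, which carries lactate transporters to the membrane, had 275 and 0 counts, at least 17.2-fold lower. *Slc2a1*, the glucose transporter GLUT1, had 34 and 2 (ratio 0.314, 0.0365 to 1.22), and *Slc16a3*, a lactate exporter, 54 and 10 (0.989, 0.449 to 1.96). Nearly all uninjected counts of *Slc2a1* lay in columns 1 to 6. *Slc16a7*, a monocarboxylate transporter, had 6 and 7 counts (6.23, 1.79 to 22.4). Of 3 detected genes that control glycolysis, 1 was lower (median -0.07), again too few to set apart from that share. *Nxnl1*, which encodes the rod-derived cone viability factor that promotes glucose uptake by cones, had 461 and 0 counts, at least 28.8-fold lower. *Pfkfb3*, which makes the activator of phosphofructokinase, had 100 and 11 (0.587, 0.284 to 1.10), and *Tigar*, which lowers it, 19 and 2 (0.562, 0.0635 to 2.33).

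Of 5 detected genes of pyruvate entry to mitochondria, 3 were lower and 2 lay within 0.3 (median -0.58), beside 24% lower among all detected genes. The carrier subunits *Mpc1* (117 and 2 counts) and *Mpc2* (92 and 2) and the dehydrogenase subunit *Pdhb* (175 and 11, ratio 0.336, 0.164 to 0.615) were lower. *Pdk1*, a kinase that inhibits this dehydrogenase, had a higher treated rate (27 and 16, ratio 3.16, 1.59 to 6.09), although its log-fold was -0.0067, and *Pdp2*, a phosphatase that reactivates it, had 3 and 6 counts (10.7, 2.28 to 66.0). In the pentose phosphate pathway 2 of 5 detected genes were lower and 3 lay within 0.3 (median -0.01), too few to set apart from that 24%. *Pgls* (174 and 1) and *Taldo1* (156 and 2) were the lower ones, while *Tkt* (20 and 12, ratio 3.20, 1.43 to 6.88) and *Rpia* (9 and 7, 4.15, 1.31 to 12.5) had higher treated rates. Most uninjected counts of *Pgls* and *Taldo1* lay in columns 7 to 12.

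Of 2 detected glycogen genes, 1 was higher and 1 lay within 0.3. The whole glycogen list took 0.0113% of uninjected and 0.0278% of treated counts. Among its genes, *Pygm*, the muscle phosphorylase, had 24 and 6 counts (ratio 1.33, 0.446 to 3.35), as did *Pgm1*, the phosphoglucomutase that links glycogen to glycolysis. *Pygb*, the brain phosphorylase, had 4 and 5 (6.67, 1.44 to 33.6), and *Gys1*, glycogen synthase, 0 and 3. For the NADH shuttles 2 of 6 detected genes were lower, 1 higher and 3 within 0.3 (median -0.19). These are too few to set apart from the 24% lower and 20.4% higher among all detected genes. The malate dehydrogenases *Mdh1* (377 and 9, ratio 0.127, 0.0578 to 0.245) and *Mdh2* (334 and 42, 0.671, 0.475 to 0.927) were lower, and the mitochondrial aminotransferase *Got2* was higher (50 and 33, 3.52, 2.20 to 5.58). Of 11 detected genes of the tricarboxylic acid cycle 6 were lower and 5 lay within 0.3 (median -0.34). The most counted of this list, *Idh3a* (236 and 1), *Idh3b* (198 and 10) and *Suclg1* (136 and 8), were among the lower ones.

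Within the uninjected plate, well columns 1 to 6 held 39 cells (546722 counts) and columns 7 to 12 held 43 (566702). What the sides stand for is not labelled, and both are wells of 1 plate, so their values have no replicate check. The 10 genes took 0.662% of the counts in columns 1 to 6 (3622 counts) and 0.801% in columns 7 to 12 (4539), a ratio of 1.21 (1.16 to 1.26), and without *Pkm* the ratio was 0.959 (0.911 to 1.01). *Pkm* thus carried the excess of columns 7 to 12. Beyond 0.3 log-fold, 3 members were lower in columns 7 to 12 (*Pgk1*, *Tpi1* and *Eno1*) and *Pkm* was higher. Among 8823 detected genes 15.9% were lower and 14.6% higher.

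*Pkm* had 568 counts in columns 1 to 6 and 1504 in columns 7 to 12 (ratio 2.55, 2.32 to 2.82, log-fold 0.92). Per 10000 counts it ran from 0 through a median of 4.54 to 94.1 in the first and from 0 through 14.2 to 181 in the second. The ranges overlapped, but 8 of 39 cells of columns 1 to 6 and 33 of 43 of columns 7 to 12 lay above the median of all, and without the top cell of each side the ratio was 3.22 (2.86 to 3.65). Its share of the member counts was 15.7% and 33.1%.

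Other members leaned to columns 1 to 6. *Pgk1* had 103 and 45 counts (columns 7 to 12 against 1 to 6: ratio 0.421, 0.290 to 0.604), *Hk2* 54 and 21 (0.375, 0.215 to 0.632), *Ldhb* 28 and 11 (0.379, 0.170 to 0.785), *Ldha* 210 and 149 (0.685, 0.551 to 0.848) and *Tpi1* 648 and 516 (0.768, 0.683 to 0.864). Without the top cell of each side the intervals of *Ldhb* (0.153 to 1.16) and *Tpi1* (0.763 to 1.004) reached 1. *Ldha* had a log-fold of 0.069 over cells, opposite in direction to its summed counts. *Aldoa* leaned the other way (1548 and 1825, 1.14, 1.06 to 1.22). The intervals of *Gapdh* (214 and 231, 1.04, 0.861 to 1.26), *Eno1* (230 and 221, 0.927, 0.767 to 1.12) and *Hk1* (19 and 16, 0.812, 0.391 to 1.67) included no difference, and the log-fold of *Eno1* (-0.35) changed to 0.14 when cells needed 500 genes.

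**Figure D5:**
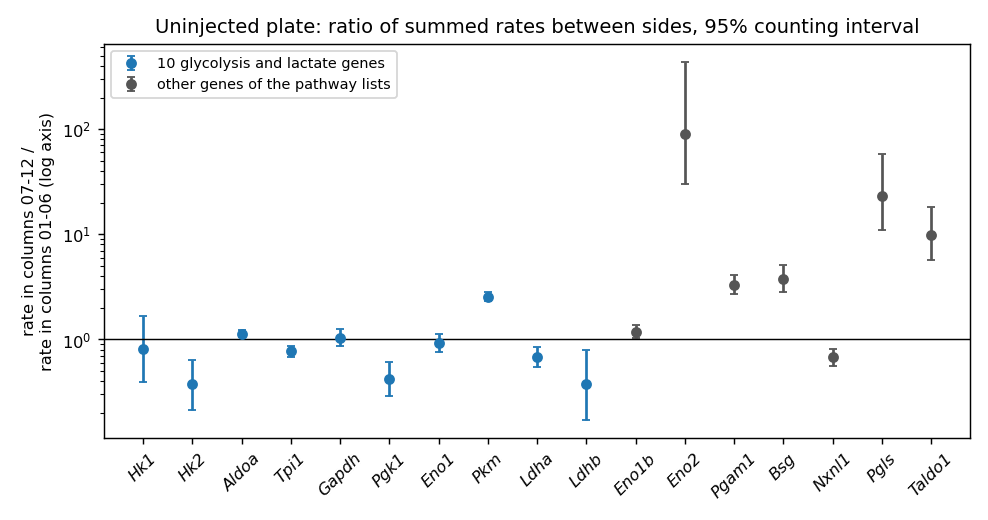
Counts per 10000 in columns 7 to 12 divided by those in columns 1 to 6 of the uninjected plate (log axis) for the 10 genes (blue) and 7 other genes of the pathway lists (grey), with exact 95% intervals that cover counting error only and a line at no difference. *Pkm* lies at 2.55 and *Eno2* at 89.4, while *Hk2* (0.375), *Ldhb* (0.379) and *Pgk1* (0.421) lie below the line. The 7 grey genes were chosen after their values were seen. *Slc2a1*, *Ogdh* and *Mpc1*, which leaned to columns 1 to 6, are not shown.

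Some related genes, chosen after their values were seen, differed more between the sides than *Pkm*. *Eno2*, the neuronal enolase, had 3 counts in columns 1 to 6 and 278 in columns 7 to 12 (ratio 89.4, 30.3 to 436), *Pgls* 7 and 167 (23.0, 10.9 to 58.1), *Taldo1* 14 and 142 (9.79, 5.64 to 18.4), *Bsg* 56 and 219 (3.77, 2.80 to 5.15) and *Pgam1* 122 and 417 (3.30, 2.69 to 4.07). Others leaned to columns 1 to 6. *Slc2a1* had 32 and 2 counts (0.0603, 0.00700 to 0.236), *Ogdh*, a subunit of the oxoglutarate dehydrogenase of the tricarboxylic acid cycle, 92 and 6 (0.0629, 0.0225 to 0.142), and *Mpc1* 93 and 24 (0.249, 0.152 to 0.393). *Nxnl1* leaned the same way (271 and 190, 0.676, 0.559 to 0.817). Cone markers took 2.48% of counts in columns 1 to 6 and 2.69% in columns 7 to 12, rod markers 0.337% and 0.228%, and Müller glia markers 0.114% and 0.0805%, and their part in these differences was not tested.

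Over the 82 uninjected cells the members were only weakly correlated with each other. Spearman's rho over the 45 pairs ran from -0.25 to 0.35 with a median of 0.066, on counts per 10000 from cells that share a library and differ in depth. Only *Hk1* with *Hk2* (0.35) and *Hk2* with *Aldoa* (0.33) exceeded 0.3, and after thinning these were -0.052 and 0.013. The summed member share had a rho of 0.43 with the cone marker share and 0.11 with total counts. Among 787 genes counted in at least 50% of uninjected cells, those most like the member sum were *Gngt2* (rho 0.47), *Pde6g* (0.42), *Rpl41* (0.42), *Ndfip1* (0.41) and *Gngt1* (0.41). After thinning their values were 0.33, 0.27, 0.21, 0.20 and 0.24, and none of the 5 was among the highest 5, so this order is not stable to depth.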

How the data were processed

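GFP-positive cells of *Pde6c*.GFP retinae were sorted 1 per well, and their RNA was sequenced by an adapted SMARTseq2 and MARS-seq protocol. The authors deposited a raw count of each gene in each cell. Per the paper's methods, alignment of 45-nt reads used CLC Genomics Workbench, duplicates were removed by UMI and mapping position, reads were counted per gene with featureCounts on a Gencode annotation, and 3' and 5' counts were added. The submitters' notes name the build GRCh38, a human number. Coordinates here are from GENCODE vM21 on GRCm38, so they may differ from those the counting used. The batch correction of the methods was not applied.

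Genes detected in under 3 cells and cells with under 200 genes or over 5% mitochondrial counts were removed, which left 15947 of 17774 genes and 146 of 151 cells. Counts were scaled to 10000 per cell. Log-folds compare 2 groups by the difference in the natural log of their mean over cells plus 1, with the 0.3 limit of the methods. Sums over a library or a plate side carry exact Poisson intervals, shares of cells Clopper-Pearson intervals, and ratios exact conditional binomial intervals, all at 95%. A gene without a count was set against a floor of 3 counts over the library. This floor does not allow for error in the other count. It also lies below the exact upper limit of 3.69 for 0 counts, so each "at least" value holds for the floor and is not an exact limit. For 0 of 64 cells the floor gives 4.69% and the exact limit is 5.60%. Thinning drew 867 counts per cell, the 10th percentile of depth, without replacement. No doublet caller was run. Calculations used scipy 1.17.1, numpy 2.4.6 and pandas 2.3.3 in Python 3.11.15, and the code was tested on simulated data.

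The members, the gene and marker lists and the rules were chosen with earlier results of these data known. Named were all 10 members, the 3 most counted genes of each other pathway list, and every listed gene with a higher treated rate and an interval above 1. A few listed genes that this rule names are not reported here. *Eno1b* and related genes named for their differences between plate sides were chosen after their values were seen. Alternatives were another cell and gene filter, scaling, pseudocount, limit and depth, the sides alone, and leaving out top cells.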

Additional observations from a re-analysis of the deposited data

How the results depend on the processing

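No paired analysis was possible because each condition had 1 library, and no replicate could be left out. The count of 9 members lower in GSK-J4-treated cells lay between 7 (limit of 0.7) and 9 under every alternative. In the main setting 24% of all detected genes were lower, and this share was not counted under the alternatives. Of 100 log-folds of single members between the libraries, 67 moved by less than the counting error, 32 moved further with the same sign, and 1 changed sign, *Hk1* at -0.027 in columns 7 to 12. The range of *Ldha* was -1.50 to -0.16, with the weakest value from summed counts. The member share was 0.763% in uninjected and 0.0254% in treated cells after thinning, and 0.692% and 0.0217% without the cell with the most member counts. The uninjected share was 0.662% in columns 1 to 6 and 0.801% in columns 7 to 12.

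Between plate sides, 4 members lay beyond 0.3, and 7 after thinning. Of 80 log-folds, 67 moved by less than the counting error, 12 moved further, and *Eno1*, the only member beyond 0.3 to change sign, was at 0.14 with at least 500 genes per cell. Members within 0.3 also changed sign: *Gapdh* (0.19) was at -0.063 and *Ldhb* (-0.070) at 0.14 after thinning, and *Ldha* (0.069) was at -0.29 with summed counts, -0.26 with median-ratio size factors and -0.081 with at least 500 genes per cell. The share in columns 7 to 12 was 0.843% after thinning and 0.723% without its top cell, and that in columns 1 to 6 was 0.603% without its top cell. Of the 5 genes most like the member sum, 0 were among the highest 5 after thinning. Scaling by median-ratio size factors moved the median of all genes between libraries by -0.20 on the log2 scale and thinning moved it by 0.34, and thinning moved that between sides by -0.15. Leaving out the top cell of each member and summing *Eno1* with *Eno1b* were chosen after seeing the data. The causes of these changes were not tested. Depth limits the treated library, where genes with few uninjected counts, such as *Ldhb* and *Hk1*, cannot be compared closely.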
